A study of Mus musculus with 12 samples.

Results

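Otop1, Kcnk3 and Phlda3 are 3 genes whose chromatin accessibility was followed in brown fat and in cold-acclimated inguinal fat of mice with and without the chromatin remodelling subunit BAF60a in adipocytes. All peaks that the deposited tables assign to these symbols were taken: 16 of 58558 peaks in brown fat (4 for Otop1, 4 for Kcnk3 and 8 for Phlda3) and 9 of 39558 in inguinal fat (1, 1 and 7). They are 3 of 17116 genes with a peak in brown fat and of 15963 in inguinal fat. The genes are treated as chosen by the differences between AKO and flox at their brown fat peaks, since earlier results of these data were known and the values the choice used are not recorded. These values are a description with no test, and the inguinal p-values are not independent evidence either, since the choice may have used those values too. In the ATAC-seq assay a transposase inserts adapters into open DNA, and the number of reads at a site measures how accessible it is.

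Otop1 encodes a proton channel of the otopetrin family, best known from the inner ear and from sour taste cells, and it is also active in brown adipocytes. Kcnk3 encodes TASK-1, an acid-sensitive potassium channel of the two-pore family that sets the resting membrane potential and marks brown over white adipocytes. Phlda3 encodes a small pleckstrin-homology protein that is induced by p53 and restrains AKT at the plasma membrane. BAF60a, encoded by Smarcd1, is a subunit of the SWI/SNF complexes, which move nucleosomes and so open or close regulatory DNA.

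The series holds 12 samples in 4 groups of 3. The control mice (flox) carried floxed BAF60a alleles on a C57BL/6 background, and the knockout mice (AKO) carried the same alleles and Adiponectin-Cre, which deletes BAF60a in adipocytes but not in the other cells of the tissue. Each brown fat sample was the frozen tissue of 1 mouse, whereas the 3 inguinal samples of a genotype were aliquots of 1 tissue pool from cold-acclimated mice, so that inguinal p-values measure the spread between aliquots and not between animals. Cold acclimation is given for the inguinal samples and not for the brown fat ones. Per the methods of the study, the depots were also sequenced on different instruments, and the inguinal reads were trimmed to the brown fat length. Depot, cold acclimation and sequencer thus cannot be told apart when the depots are compared. Ages are not in the sample labels. Nuclei came from whole tissue, and fewer cells of a type and less accessibility per cell cannot be told apart in these values.

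A normalized read is a read in a peak divided by the size factor of its sample. Samples held 6336670 to 27500738 reads in peaks in brown fat, and AKO replicate 2 had the fewest. Inguinal samples held 4066720 to 6691161. The targeted gene gave a check of the brown fat labels. A Smarcd1 peak on chromosome 15 held 136, 201 and 185 normalized reads in the brown fat of flox mice but 23.7, 57.9 and 26.9 in that of AKO mice. No peak was listed there in inguinal fat. Another Smarcd1 peak overlapped between the genotypes in brown fat (485, 456 and 369 in flox, 412, 417 and 497 in AKO mice). It overlapped in inguinal fat too, so the inguinal labels were not checked in this way. The first principal component (PC1) held 55.6% of the variance in brown fat and was a covariate of the fit there, as in the methods of the study. Its scores were -98.2, -41.8 and 14.6 in flox and -0.617, 112 and 13.5 in AKO mice. The extremes, flox replicate 1 and AKO replicate 2, were the samples with the most and the fewest reads. PC1 lay partly along genotype too, so that fitting it can take up part of a genotype difference. Brown fat log2 differences are given with this covariate, and without it where that moves them by more than 1.5 times. Percentages of the flox mean, sums over peaks and counts without overlap are taken from normalized reads and do not include PC1. All 4 brown adipocyte and all 5 adipocyte marker genes had peaks in both depots.

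Sequences are given for the peaks with the largest brown fat differences, together with the 250 bases before the start site from the RefSeq promoter table (GRCm38.p6, the same assembly as mm10), in which 2 of the 3 genes, Otop1 and Phlda3, were matched. For peaks longer than 300 bases the central 300 are given. All run 5′ to 3′ on the plus strand, which is the strand of all 3 genes. Capitals mark matches to a PPAR response element (2 copies of AGGTCA 1 base apart, up to 3 mismatches) or to the ERR motif TCAAGGTCA (exact), on either strand. The Otop1 start-site peak has its centre in intron 1 (chr5:38277896-38278195), while its promoter is at chr5:38277154-38277403.
Otop1 start-site peak, centre: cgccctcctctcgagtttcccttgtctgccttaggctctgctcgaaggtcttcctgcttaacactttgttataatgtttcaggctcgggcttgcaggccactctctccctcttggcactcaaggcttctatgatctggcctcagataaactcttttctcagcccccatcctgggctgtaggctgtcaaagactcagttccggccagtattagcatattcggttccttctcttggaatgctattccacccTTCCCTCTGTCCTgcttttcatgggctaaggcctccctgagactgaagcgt
Otop1 promoter: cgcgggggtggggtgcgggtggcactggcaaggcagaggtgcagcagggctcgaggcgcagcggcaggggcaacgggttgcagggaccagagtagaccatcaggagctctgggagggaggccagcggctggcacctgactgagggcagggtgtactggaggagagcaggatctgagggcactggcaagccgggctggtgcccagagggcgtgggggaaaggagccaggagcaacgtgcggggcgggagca
The Phlda3 peak at -1301 bases (chr1:135764689-135764879), the promoter (chr1:135765835-135766084) and the intron 1 peak (chr1:135767617-135767916) follow each other along chromosome 1.
Phlda3 upstream peak, whole: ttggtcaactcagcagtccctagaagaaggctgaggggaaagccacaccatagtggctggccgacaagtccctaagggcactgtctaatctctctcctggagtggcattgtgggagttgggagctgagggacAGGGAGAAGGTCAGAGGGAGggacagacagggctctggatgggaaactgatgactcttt
Phlda3 promoter: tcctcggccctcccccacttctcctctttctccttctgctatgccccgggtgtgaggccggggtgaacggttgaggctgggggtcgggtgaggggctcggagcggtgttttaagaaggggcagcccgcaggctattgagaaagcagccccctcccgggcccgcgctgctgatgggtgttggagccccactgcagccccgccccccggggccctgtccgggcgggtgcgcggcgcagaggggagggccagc
Phlda3 intron 1 peak, centre: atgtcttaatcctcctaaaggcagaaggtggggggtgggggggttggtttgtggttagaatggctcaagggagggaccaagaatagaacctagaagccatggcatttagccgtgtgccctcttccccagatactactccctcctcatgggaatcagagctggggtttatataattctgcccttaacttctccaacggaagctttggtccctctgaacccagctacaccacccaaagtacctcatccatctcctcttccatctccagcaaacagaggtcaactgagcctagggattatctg
The Kcnk3 peak at -13553 bases (chr5:30574467-30574766) is shown because it was the only one of the 16 brown fat peaks with an exact ERR match, which there overlaps a PPAR element match.
Kcnk3 upstream peak, centre: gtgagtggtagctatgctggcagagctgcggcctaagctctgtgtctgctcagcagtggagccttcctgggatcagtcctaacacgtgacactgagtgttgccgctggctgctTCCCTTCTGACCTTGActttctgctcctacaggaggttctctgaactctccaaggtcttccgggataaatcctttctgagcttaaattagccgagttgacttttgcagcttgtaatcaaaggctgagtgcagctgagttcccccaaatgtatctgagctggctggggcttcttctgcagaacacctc

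In brown fat, accessibility at the Otop1 start site in AKO mice was 54.1% of that in flox mice, and at Kcnk3 it was 66.4%, whereas Phlda3 had lower and higher peaks within a few kilobases of each other and a lower sum over its peaks. These percentages and this sum do not include PC1. Every AKO sample lay below every flox sample at 4 of the 16 peaks, where 8.84% of all brown fat peaks did so. Every AKO sample lay above at 1 of the 16, against 8.77% of all peaks. The counts came to 8 below without flox replicate 3 and without AKO replicate 1, and to 2 above without flox replicate 2. Fewer samples separate more easily, and no share over all peaks was counted with a replicate left out. The shares of 8.84% and 8.77% hold for all samples only. They are printed as a reference only, since this comparison may have taken part in the choice of the genes. Of the 16 log2 differences 11 were negative, with a median of -0.03, and 28733 of all 58558 were negative, with a median of 0.0067. Without PC1, 12 of the 16 were negative, with a median of -0.24, against -0.014 over all peaks.

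The Otop1 start-site peak (chr5:38276403-38279690) covers the start site, exon 1 and part of intron 1. It had 2585, 2494 and 2380 normalized reads in the flox samples and 1431, 1232 and 1373 in AKO brown fat, so that the genotypes were separated by a gap far wider than the spread within each. The AKO mean was 54.1% of the flox mean (2486 ± 103 against 1345 ± 102, SD, n = 3), with a log2 difference of -0.77 (standard error 0.170). Between 638 and 4947 reads stood behind each value. In flox mice this peak ranked at the 99.9th percentile of all brown fat peaks by reads and at the 94.6th by reads per kilobase, and it was wider than 99.9% of them.

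The other 3 Otop1 peaks were small and overlapped between the genotypes. The peak at -6213 bases from the start site had 126, 123 and 102 normalized reads in the flox samples and 160, 79.2 and 75.8 in AKO mice, a log2 difference of 0.11 (standard error 0.341) with PC1 and -0.24 without. That sign also turned with single libraries: it was -0.46 when AKO replicate 1 was left out and 0.51 when AKO replicate 3 was. The intron 1 peak at 8504 bases and the intron 2 peak at 14195 bases had differences of -0.36 (0.247) and -0.11 (0.285) with PC1, of -0.08 and 0.19 without it, and of -0.78 and -0.50 without flox replicate 3. The start-site peak made up 89.7% of the reads summed over the 4 Otop1 peaks in flox and 82.6% in AKO mice. The sum was 2771 ± 118 in flox and 1628 ± 94.0 in AKO mice.

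The Kcnk3 start-site peak (chr5:30587013-30589065) covers the start site, exon 1 and the beginning of intron 1. It had 2320, 1932 and 1686 normalized reads in the flox samples and 1575, 1049 and 1320 in AKO brown fat. All AKO samples were lower, but the highest AKO and the lowest flox sample lay close together, and flox samples spread widely. In AKO mice the mean was 66.4% of that in flox mice (1979 ± 320 against 1315 ± 263). The log2 difference was -0.24 (standard error 0.178) with PC1 as a covariate and -0.60 without it, so that the size of this difference rests on how PC1 is treated.

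The 3 upstream Kcnk3 peaks overlapped between the genotypes. The one at -13553 bases, printed above with the ERR match, had 375, 327 and 266 normalized reads in the flox samples and 305, 220 and 239 in AKO mice, a log2 difference of -0.04 with PC1 (standard error 0.194) and -0.34 without. The peaks at -15596 and -10176 bases had differences of -0.01 (0.261) and 0.10 (0.267) with PC1, of 0.10 and 0.23 without it, and of -0.33 and -0.37 without flox replicate 3. Summed over its 4 peaks, Kcnk3 had 2657 ± 391 normalized reads in the flox samples and 1980 ± 255 in AKO mice, and the sums overlapped.

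**Figure D1:**
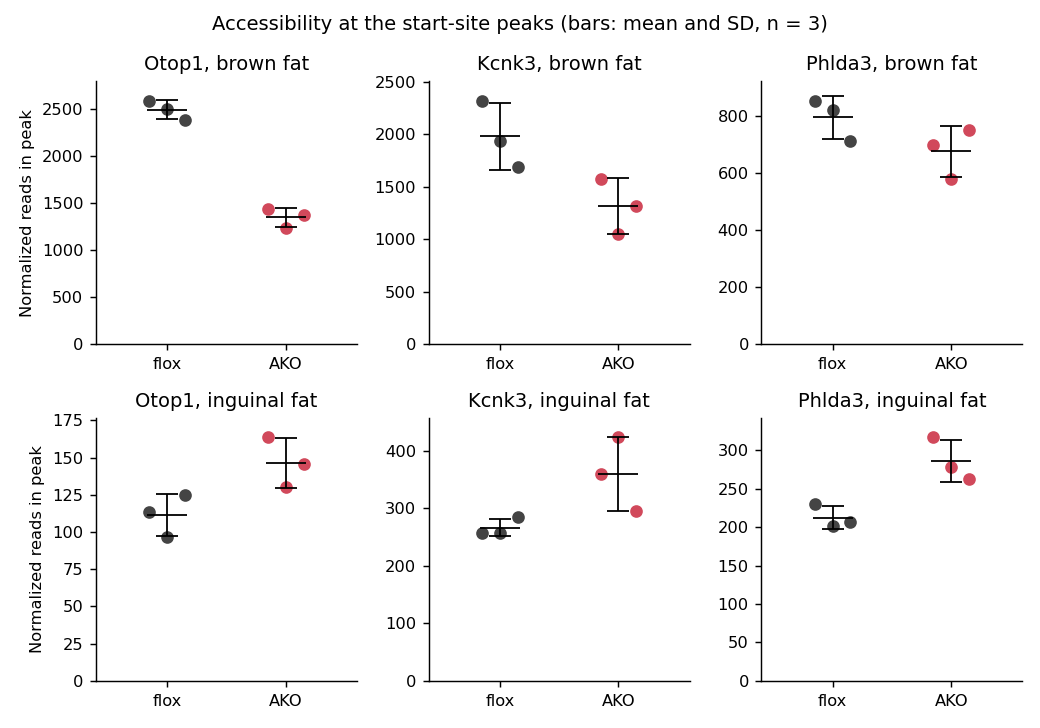
Normalized reads in the start-site peak of each gene (columns) in brown fat (upper row) and inguinal fat (lower row), from 0, each point 1 sample, with the mean and SD of 3 flox and 3 AKO samples. In brown fat Otop1 AKO samples sit between 1232 and 1431 and flox samples between 2380 and 2585, while in inguinal fat the AKO samples of all 3 genes lie above the flox samples.

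Phlda3 is a short gene (chr1:135766085-135769134, 2 exons), and its 8 brown fat peaks lay between -13037 and 10970 bases from the start site. The intron 1 peak (chr1:135767557-135767978) had 352, 363 and 340 normalized reads in the flox samples and 196, 114 and 196 in AKO mice. Flox samples were nearly equal, and every AKO sample was lower. The AKO mean was 47.9% of the flox mean (352 ± 11.3 against 169 ± 47.3), with a log2 difference of -0.75 (standard error 0.237). The lowest value, 114, came from AKO replicate 2, the shallowest library, with 59 reads. The difference was -0.46 without flox replicate 3.

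The small Phlda3 peak at -1301 bases lay the other way. It had 81.0, 96.1 and 55.6 normalized reads in the flox samples and 144, 151 and 131 in AKO mice, without overlap. Mean accessibility in AKO was 183% of that in flox mice (77.6 ± 20.4 against 142 ± 9.79), with a log2 difference of 1.03 (standard error 0.280). Between 43 and 155 reads stood behind each value, and the difference was 0.50 without flox replicate 3, which had the lowest value.

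Between these peaks, the Phlda3 start-site peak (chr1:135765755-135766496) had 853, 819 and 710 normalized reads in the flox samples and 698, 577 and 750 in AKO mice. The genotypes overlapped, and the log2 difference was -0.02 (standard error 0.176) with PC1 and -0.24 without. The highest Phlda3 peak by flox mean, at 4815 bases downstream, had 1085, 905 and 865 normalized reads in the flox samples and 867, 587 and 856 in AKO mice, a difference of 0.02 (0.181) with PC1 and -0.32 without. The peak at 10970 bases had every AKO sample (363, 396 and 435) below every flox sample (606, 508 and 485), with a difference of -0.32 (0.201), and of -0.12 without AKO replicate 1. The 3 peaks farther upstream overlapped, with differences of -0.03, 0.10 and -0.13 at -13037, -10659 and -6255 bases with PC1 and of -0.24, -0.14 and -0.22 without. Summed over its 8 peaks, Phlda3 had 3820, 3492 and 3249 normalized reads in the flox samples and 3037, 2418 and 3130 in AKO mice. Every AKO sum was lower, at 81.3% of the flox mean (3520 ± 286 against 2862 ± 387). The sums do not include PC1, with which the median log2 difference of the 8 peaks was -0.02. Phlda3 thus differed from Otop1 in where its reads lay: the start-site peak held 22.6% of the summed reads in flox mice, against 89.7% for Otop1 and 74.5% for Kcnk3.

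**Figure D2:**
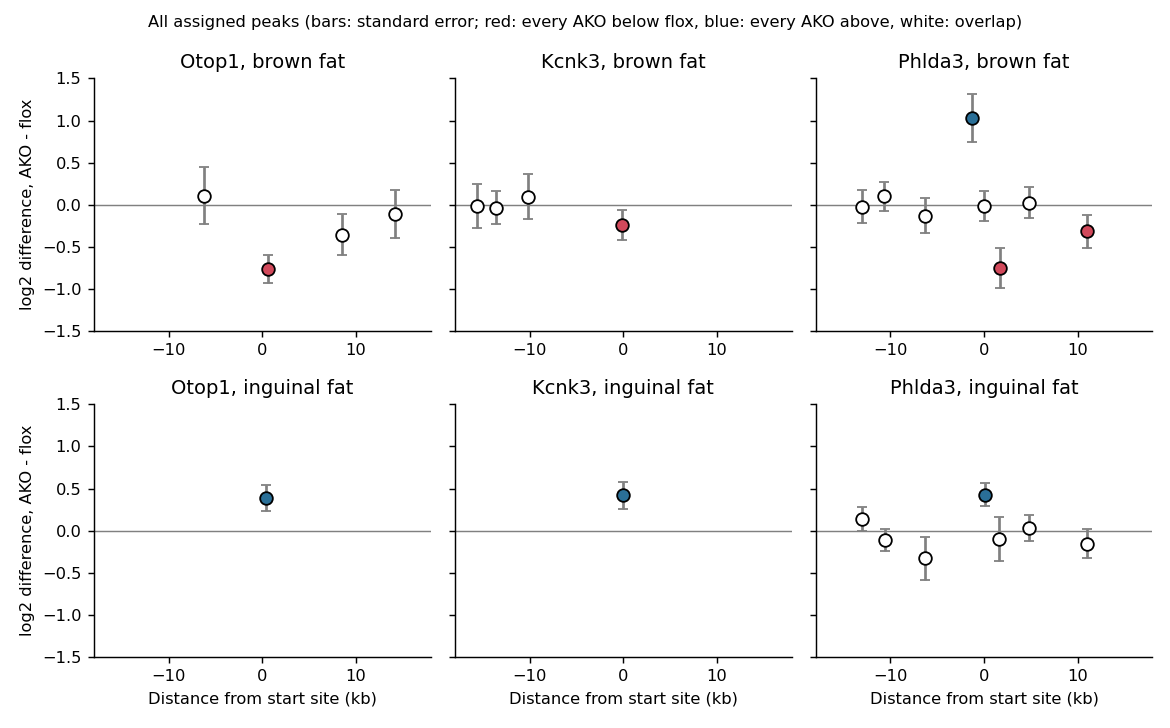
Log2 difference between AKO and flox (vertical, with standard error) of every peak assigned to the 3 genes against its distance from the start site in kilobases, in brown fat (upper row) and inguinal fat (lower row). Red points have every AKO sample below flox, blue points every AKO sample above, and white points overlap. In brown fat the Phlda3 peaks at -1301 and 1682 bases differ by 1.03 and -0.75.

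The start-site peaks of Otop1 and Kcnk3 belonged to the highest peaks of brown fat. Of the 1425 brown fat peaks whose mean over the 6 samples reached 1000 normalized reads, 19.3% had every AKO sample below every flox sample and 0.211% had every AKO sample above. Of the 9962 peaks over a RefSeq start site, 6.68% were below and 8.43% above. The median log2 difference of the high peaks was 0.08 with PC1 as a covariate. Whether height played a part in the differences at Otop1 and Kcnk3 was not tested.

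Sums over the peaks of brown adipocyte and of adipocyte markers were also lower in AKO brown fat, without overlap. Reads summed over the peaks of Ucp1, Cidea, Zic1 and Lhx8, 4 of 4 with peaks, ran from 10193 to 14470 in flox and from 6659 to 7877 in AKO mice. For the general adipocyte markers, 5 of 5 with peaks, the sums ran from 14708 to 15251 in flox and from 11030 to 14257 in AKO mice. The sums of the fibroblast markers were lower too (2846 to 3021 against 2689 to 2838, 3 of 3 with peaks). Of their 14 peaks 5 had a negative log2 difference with PC1 and 7 without it, with medians of 0.03 and -0.03. Sums for skeletal muscle, lymphocyte, macrophage, endothelial and Schwann cell markers overlapped, and Ckm, Myh1, Myod1 and Tnnt3 of the muscle list had no brown fat peak, nor did Cd3e, Cd3d, Cd79a and Ms4a1 of the lymphocyte list. The part of cell composition in the differences at the 3 genes was not tested.

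In inguinal fat, all 3 start-site peaks had higher values in AKO than in flox samples, without overlap, and none passed the threshold of limma. Every AKO aliquot lay above every flox aliquot at 3 of the 9 peaks, where 10.6% of all inguinal peaks did so. Every AKO aliquot lay below at 0 of the 9, against 10.3% of all peaks. Without flox replicate 2 the counts were 3 below and 4 above, and no share over all peaks was counted for that setting. The limma test with Benjamini-Hochberg adjustment over all peaks called 0% of the 39558 peaks at an adjusted p under 0.1, 0 of the 9 among them. Without adjustment, 3 of the 9 peaks had a p under 0.05, all of them higher in AKO, and 7.61% of all inguinal peaks were higher at that level. The start-site peaks are the 3 in question.

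The Otop1 peak (chr5:38277178-38278417), which again covers the start site, had 113, 96.7 and 125 normalized reads in the flox samples and 164, 130 and 145 in AKO aliquots. The groups lay close together, with the lowest AKO value just above the highest flox value. Mean accessibility in AKO was 131% of that in flox aliquots (112 ± 14.1 against 146 ± 16.8, SD, n = 3), a log2 difference of 0.39 (standard error 0.158, adjusted p = 0.309 from limma). It rested on 87 to 159 reads per aliquot. The adjusted p ranged from 0.176 to 0.9999 over the alternative settings.

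The Kcnk3 peak (chr5:30587188-30589017) had 257, 258 and 284 normalized reads in the flox samples and 360, 424 and 296 in AKO aliquots. AKO aliquots spread more widely than flox aliquots, and the lowest was close to the flox range. In AKO aliquots the mean was 135% of that in flox aliquots (266 ± 15.3 against 360 ± 63.7), a log2 difference of 0.42 (standard error 0.164, adjusted p = 0.299 from limma). DESeq2 on the recovered reads gave an adjusted p of 0.0990, a call, as did edgeR's quasi-likelihood test with 0.0179, in a range from 0.0179 to 0.9999 over the alternatives (the last with PC1 as a covariate, which separates the genotypes fully in inguinal fat). DESeq2 called 0.546% of the peaks it tested as higher in AKO, and edgeR 2.15%.

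The Phlda3 start-site peak (chr1:135765884-135766455) had 230, 201 and 207 normalized reads in the flox samples and 317, 279 and 263 in AKO aliquots. All AKO values were clearly above the flox values. The AKO mean was 135% of the flox mean (212 ± 15.0 against 286 ± 27.8), a log2 difference of 0.43 (standard error 0.138, adjusted p = 0.230 from limma, 0.103 from DESeq2 and 0.0290 from edgeR, a call, in a range from 0.0290 to 0.9999 over the alternatives).

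The other 6 inguinal Phlda3 peaks overlapped between the genotypes, with log2 differences from -0.33 at -6326 bases to 0.13 at -12992 bases. The intron 1 peak, at 47.9% in brown fat, had 67.7, 34.5 and 63.7 normalized reads in the flox samples and 45.0, 53.7 and 50.3 in AKO aliquots, a difference of -0.10 (standard error 0.258, adjusted p = 0.892 from limma) at a depth of 31 to 95 reads. The highest peak, at 4807 bases, had 302, 235 and 303 in flox and 308, 287 and 261 in AKO aliquots. Summed over all 7 peaks, Phlda3 had 1040 ± 97.2 normalized reads in the flox samples and 1095 ± 54.5 in AKO aliquots, so the higher start-site peak did not show in the sum.

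Among marker sums in inguinal fat, endothelial markers were lower in AKO aliquots (655 to 694 in flox, 527 to 603 in AKO, 3 of 4 with peaks, Tie1 without), and their part in the higher start-site peaks was not tested. Brown adipocyte markers, 4 of 4 with peaks, ran from 639 to 714 in flox and from 713 to 761 in AKO aliquots and just overlapped. The other marker sums overlapped. With 1 pool per genotype, the genotype and the pool cannot be told apart.

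The levels of the 2 depots come from separate normalizations, so only ranks within each table are set side by side. The Otop1 start-site peak stood at the 99.9th percentile by flox mean in brown fat and at the 67.3rd in inguinal fat. Kcnk3 stood at the 99.8th and 88.9th, and Phlda3 at the 94.7th and 84.3rd. Per kilobase, the percentiles were 94.6 and 9.52 for Otop1, 97.8 and 36.8 for Kcnk3, and 98.6 and 92.2 for Phlda3. Otop1 and Kcnk3 thus ranked lower in the inguinal table than in the brown fat one on both scales, Phlda3 by less, and no test was made of these ranks.

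All 9 inguinal peaks overlapped a brown fat peak of the same gene by at least 1 base, and 7 did so by at least 50% of both peaks. The exceptions were the Otop1 start-site peak, 3288 bases wide in brown fat and 1240 in inguinal fat, and the Phlda3 intron 1 peak. Of the 16 brown fat peaks 7 had no inguinal counterpart: all peaks of Otop1 and Kcnk3 outside the start sites, and the Phlda3 peak at -1301 bases. At 2 of the 9 shared peaks, the start sites of Otop1 and Kcnk3, every AKO sample was below flox in brown fat and above flox in inguinal fat, which held for 0.832% of the 31839 shared peak pairs. For Phlda3, 0 of 7 pairs did so. The 0.832% covers pairs of every height, whereas the Otop1 and Kcnk3 start-site peaks were among the highest in brown fat. Of the 1425 brown fat peaks that reached a mean of 1000, 19.3% had every AKO sample below flox and 0.211% above. Over all brown fat peaks these shares were 8.84% and 8.77%. No share was counted for pairs of similar height, so how rare the opposite pattern is among them was not tested. By the sign of the log2 difference alone, 4 of the 9 pairs were lower in brown fat and higher in inguinal fat, against 19.7% of all pairs. Since the brown fat values may have taken part in the choice, these shares are descriptions, and the difference between the depots was not tested. In that difference depot, cold acclimation and sequencer cannot be told apart.

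**Figure D3:**
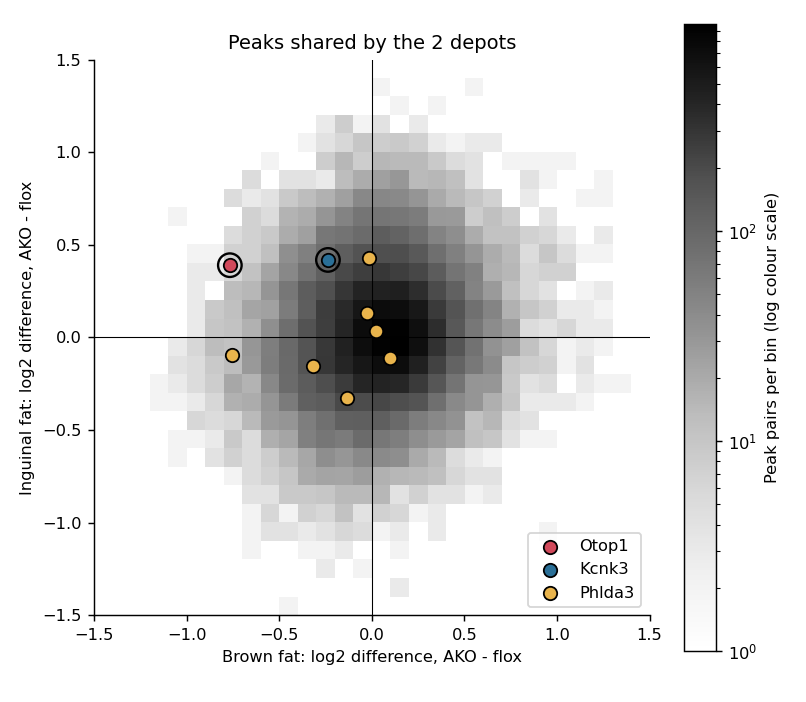
Log2 difference between AKO and flox in brown fat (horizontal) and inguinal fat (vertical) for peak pairs shared by the depots, grey squares giving the number of pairs per bin of 0.1 on a log colour scale, with 31815 pairs inside the plotted range. Coloured points are the 9 pairs of the 3 genes, and circles mark Otop1 (-0.77 and 0.39) and Kcnk3 (-0.24 and 0.42), whose genotypes did not overlap and whose directions were opposite.

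The rule by symbol left out peaks inside the Kcnk3 gene. The gene runs over 37101 bases (chr5:30588170-30625270, 2 exons), and 8 brown fat peaks lay in it, of which 1 was assigned to Kcnk3 and 7 to Gm9899 or Mir5625, whose start sites are nearer. Of these 7, 2 had a negative log2 difference with PC1 and 5 without it. Every AKO sample was below every flox sample at 1 of the 7, where 8.84% of all brown fat peaks were. It was the peak at 6481 bases (671 ± 41.0 in flox, 544 ± 71.9 in AKO). Its log2 difference was -0.16 (standard error 0.187) with PC1 and -0.31 without. The peak at 29397 bases was the highest, with 1380, 951 and 846 normalized reads in the flox samples and 1023, 647 and 788 in AKO mice, and it overlapped. In Otop1, 1 further peak, assigned to Drd5, lay 23903 bases downstream of the start site, with 437, 485 and 432 in flox and 302, 350 and 296 in AKO mice and a log2 difference of -0.60 (standard error 0.185).

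In inguinal fat, 2 peaks inside Kcnk3 were assigned to Gm9899, and the one 18342 bases into the gene was chosen here after its values were seen. It had 57.7, 58.9 and 62.8 normalized reads in the flox samples and 107, 114 and 109 in AKO aliquots, with a gap much wider than the spread. Its log2 difference was 0.87 (standard error 0.122, adjusted p = 0.149 from limma, equal to the smallest of any inguinal peak). DESeq2 gave an adjusted p of 0.0149 and edgeR 0.00502, both calls, in a range from 0.00502 to 0.9999 over the alternatives, the last with PC1 as a covariate. The peak of brown fat at the same place, 18459 bases into the gene, had 596, 454 and 397 in flox and 532, 299 and 480 in AKO mice, which overlapped, with a difference of 0.36 (standard error 0.179) with PC1 and -0.16 without.

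The surroundings of each gene are read against the 8.84% of all brown fat peaks that lay below and the 8.77% that lay above without overlap. Within 100 kb of the Otop1 start site 14 brown fat peaks were found, 11 with a negative log2 difference (10 without PC1) and 5 with every AKO sample below flox, 3 of these assigned to Drd5. Around Kcnk3 12 of 28 peaks were negative with PC1 and 18 without it, and 2 were below and 1 above without overlap. Around Phlda3 10 of 19 were negative with and without it, with 2 below and 5 above, of which 3 were assigned to Csrp1 and 1 to Tnni1. In inguinal fat, where the shares over all peaks were 10.3% and 10.6%, the counts without overlap were 0 below and 1 above of 5 peaks around Otop1, 1 and 3 of 10 around Kcnk3, and 1 and 1 of 18 around Phlda3.

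**Figure D4:**
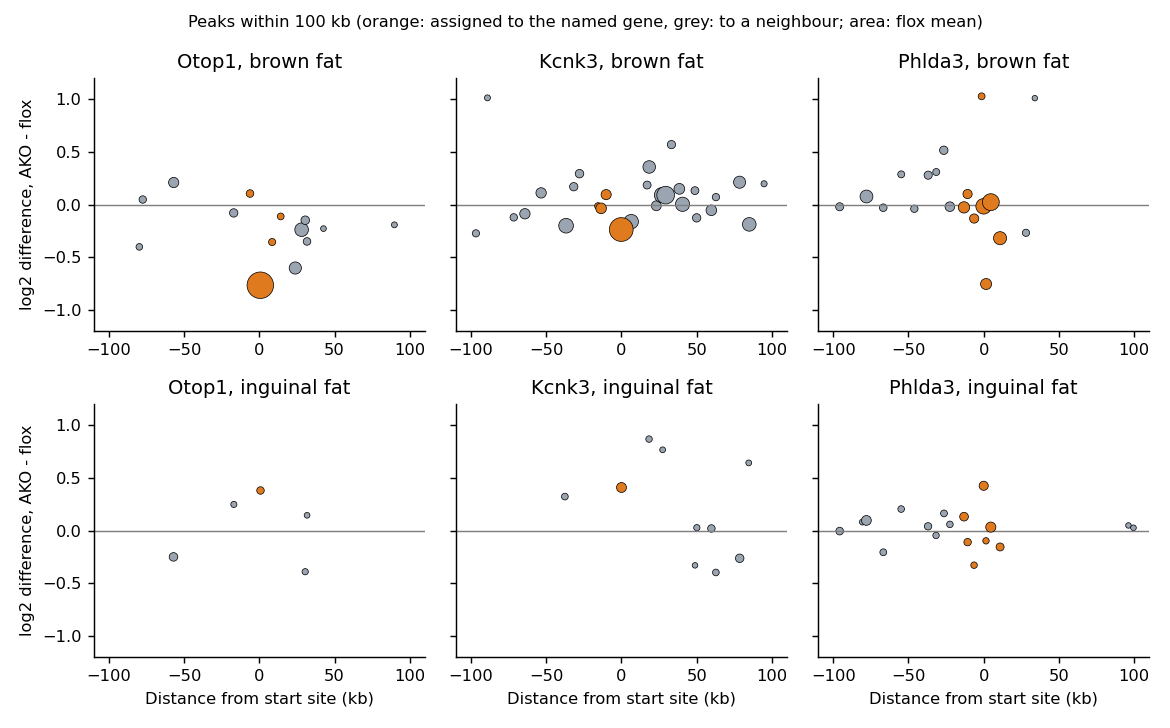
Log2 difference between AKO and flox (vertical) of every peak within 100 kb of each start site (horizontal, kilobases), in brown fat (upper row) and inguinal fat (lower row). Orange points are peaks assigned to the named gene, grey points those assigned to neighbours, and the area grows with the flox mean. Of the 14 brown fat peaks around Otop1 11 lie below 0, against 12 of 28 around Kcnk3, all with PC1 as a covariate (10 and 18 without it).

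Relatives of the 3 genes were counted next. Otop2 and Otop3, the other otopetrins, had no peak in either depot. The other two-pore potassium channel genes, 13 in number, had 30 brown fat peaks, with 0 below and 6 above, against 8.84% and 8.77% of all peaks, and a median log2 difference of 0.0041 with PC1 and 0.40 without. By the size of the difference the first was a Kcnk2 peak that overlapped (98.2, 129 and 133 in flox, 92.8, 212 and 85.4 in AKO mice), with -0.67 with PC1 and -0.0018 without. A Kcnk9 peak, 1 of the 6 above, followed with 0.35 with PC1 and 0.59 without (72.1, 103 and 77.6 in flox, 105, 156 and 121 in AKO mice). An overlapping Kcnk16 peak came next, with 0.29 with PC1 and 0.09 without. In inguinal fat 11 of them had 27 peaks, with 1 below and 3 above, against 10.3% and 10.6% of all peaks, and a median of 0.15. A Kcnk7 peak lay above (101, 106 and 94.7 in flox, 131, 130 and 119 in AKO), and peaks of Kcnk12 and Kcnk2 overlapped, with differences of 0.31 and 0.20. Phlda1 and Phlda2 had 9 brown fat peaks, with 0 below and 2 above, and Phlda1 had 5 inguinal peaks, all overlapping. Among peaks whose mean reached 100 normalized reads, the largest Phlda1 differences were 0.23 in brown fat (-0.09 without PC1) and -0.22 in inguinal fat. In both depots limma called 0 of the peaks of these families. It called 0 of all 58558 brown fat and 0 of all 39558 inguinal peaks too, so this count does not set the families apart.

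A list of genes typical of brown fat was counted beside Otop1 and Kcnk3, since both depots hold thermogenic adipocytes. Ucp1, Cidea, Zic1 and Lhx8, the brown adipocyte markers above, belong to it too, so its counts share peaks with the marker sums. The list of 20 genes had 173 peaks in brown fat, 137 with a negative log2 difference, 51 below and 4 above without overlap, where 8.84% and 8.77% of all peaks were, and a median of -0.25, against 0.0067 over all peaks. Without PC1 130 were negative, with a median of -0.24. At Ucp1, the uncoupling protein of thermogenesis, the peak at chr8:83298730-83300383 had 1629, 1143 and 952 normalized reads in the flox samples and 312, 332 and 227 in AKO mice. At Dio2, which activates thyroid hormone, a peak had 573, 841 and 740 in flox and 402, 417 and 303 in AKO mice. A peak of Acot11, which encodes an acyl-CoA thioesterase, had the opposite sign and overlapped, with 936, 543 and 554 in flox and 1126, 547 and 722 in AKO mice and a log2 difference of 0.81 with PC1 and 0.22 without. In inguinal fat 19 of the 20 had 69 peaks, with 26 negative, 6 below and 16 above, where 10.3% and 10.6% of all peaks were, and a median of 0.10, against -0.0009 over all peaks. A Cidea peak there had 97.7, 75.6 and 95.5 in flox and 119, 148 and 125 in AKO aliquots, and peaks of Ppara and Acot11 lay above too, with log2 differences of 0.42 and 0.35.

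Other p53 target genes were counted beside Phlda3. Of 51 brown fat peaks of 14 genes, 23 had a negative log2 difference, 1 was below and 7 were above without overlap, against 8.84% and 8.77% of all peaks, with a median of 0.09. Without PC1 33 were negative, with a median of -0.08, so that the direction of the list turned with the covariate. The 1 below was at Mdm2, which encodes the main inhibitor of p53 (442, 452 and 480 in flox, 369, 328 and 298 in AKO mice). Peaks of Bbc3 and Btg2 overlapped, with log2 differences of -0.48 and -0.29, and Bbc3 came to -0.22 without PC1. In inguinal fat 33 peaks gave 5 below and 4 above, against 10.3% and 10.6% of all peaks, with a median of 0.01. A Tnfrsf10b peak lay above (0.57) and peaks of Plk2 and Mdm2 lay below (-0.33 and -0.26). Limma called 0 of the peaks of this list and of the brown fat list in either depot, and 0 of all peaks of each depot.

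The genes nearest to each of the 3 in their pattern over the 6 brown fat samples were found among 15205 genes, by the root mean square difference of log2 summed reads after centring. Nearest to Otop1 was Cpt1b, which imports fatty acids into mitochondria, with 2635, 2349 and 2296 summed normalized reads in the flox samples and 1529, 1356 and 1393 in AKO mice and a distance of 0.0381, against a median distance of 0.389. A530050N04Rik (0.0853) came next. Nearest to Kcnk3 was Cidea, a lipid droplet protein of brown adipocytes, with 4722, 3979 and 3455 in flox and 3379, 2700 and 2908 in AKO mice and a distance of 0.0206 against a median of 0.258. Katnal2 (0.0462) and Sfxn5 (0.0502) followed. Phlda3 was nearest to Ift74 (0.0187), Pcf11 (0.0211) and Mat2b (0.0215), with a median of 0.202. When the highest peak of each gene replaced the sum, 1 of the 9 names was kept. The 6 points share their libraries and depth, and no test was made.

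**Figure D5:**
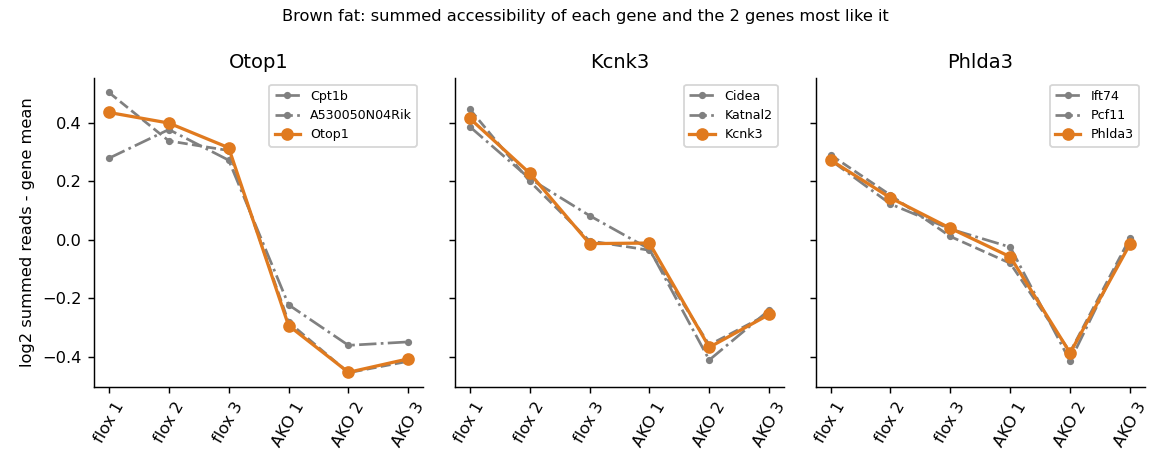
Log2 summed normalized reads minus the mean of the gene (vertical) in the 6 brown fat samples (horizontal) for each of the 3 genes (orange) and the 2 genes nearest to it (grey), with lines only to guide the eye. The Otop1 panel drops between flox and AKO samples as Cpt1b does. AKO replicate 2 is the lowest sample for each of the 3 genes.

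Sequence motifs were counted in the central 300 bases of each peak on both strands. A PPAR response element as defined above was matched in 6 of the 16 brown fat peaks, where 32.3% of all brown fat windows held a match, and in 2 of the 9 inguinal peaks, against 28.5%. With up to 2 mismatches there were 0 matches in either depot, against 6.41% and 5.16% of all windows. The Otop1 start-site peak held 1 match in its centre and 5 over its whole width, and the Phlda3 peak at -1301 bases held 2 overlapping ones, both printed in capitals above.

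The ERR motif was found in 1 of the 16 windows, the Kcnk3 peak at -13553 bases, against 0.874% of all, and 6 of its bases lie in the PPAR element match there. The EBF motif (TCCC and GGGA 2 bases apart) was found in 2 of 16, the Otop1 peak at 8504 bases and the Phlda3 peak at -10659 bases, against 2.40% of all windows. NBRE (AAAGGTCA), C/EBP (TTGCGCAA, 1 mismatch), NF1 (TTGGC and GCCAA 5 bases apart, 1 mismatch) and p53 (2 copies of CATG 6 bases apart) were found in 0 of the 16 and 0 of the 9 windows, against 2.64%, 7.18%, 1.93% and 0.702% of all brown fat windows. The windows of the start-site peaks of Kcnk3 and Phlda3 were rich in G and C, at 79.0% and 77.3%, against a median of 52.3% over all brown fat windows, while that of Otop1 was at 52.0%.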

How the data were processed

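Accessible chromatin was measured by ATAC-seq in 12 samples, 3 per genotype in each depot. Per the labels and the methods of the study, paired reads were mapped to mm10 with BWA 0.7.17-r1188, marked for duplicates with Picard 2.8.14 and restricted to autosomes and high mapping quality. Broad peaks from MACS2 2.1.1.20160309 were merged over samples, kept where most replicates of a genotype had a call, counted with bedtools 2.27.1 and assigned to the closest gene. The labels give 50000 nuclei per reaction and the methods a smaller number. The deposited signal values are read numbers per peak, scaled by the authors to 1 size factor for each sample, and their tool for differential peaks was DESeq2 1.20.0. Whole reads were recovered for 100% of values. Of the columns with values per sample 0 were unused, and the authors' fold changes and p-values in the same tables were not used. The brown fat table names no depot: it was assigned by its PC1 fit and by elimination, since the labels of the inguinal samples name the other table.

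Starts in the tables count from 0, since only then did the deposited distances of all 16 brown fat peaks equal those from the RefSeq start sites, and positions here count from 1. Each depot was fitted on its own, over all peaks, with lmFit and eBayes of limma 3.58.1 on log2(normalized reads + 1), with PC1 of all peaks as a covariate in brown fat only and an adjusted p under 0.1 (Benjamini-Hochberg) as a call. DESeq2 1.42.0 and edgeR 4.0.16 on the recovered reads, other normalizations, pseudocounts of 0.1 and 10, a minimum of 10 reads, omitted replicates and a replicate block were alternatives. Brown fat as a whole had 0 limma calls, 5301 peaks with an unadjusted p under 0.05, 174 calls by DESeq2 and 84 by edgeR. The fits and the motif search were tested on simulated data. An exact permutation test of 3 against 3 samples cannot give a p under 0.1, so none was run. Intervals from counting would cover counting error only.

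The 3 genes and all lists were chosen with earlier results of these data known. For each gene, the start-site peak, the highest peak and the peaks with the lowest and highest log2 difference were named. Up to 3 genes per list were named, by the largest difference where the mean reached 100 normalized reads. One gene among those nearest in pattern to Otop1 is not reported here. Tools were R 4.3.3, Python 3.11.15, pandas 2.3.3, scipy 1.17.1, pysam 0.24.0 and matplotlib 3.10.9.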

Additional observations from a re-analysis of the deposited data

Results flagged for a closer look

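At the start sites of Otop1 and Kcnk3 the genotypes differed in opposite directions in the 2 depots, with every sample on the side of its group. For Otop1 the log2 difference between AKO and flox was -0.77 in brown fat and 0.39 in inguinal fat. For Kcnk3 it was -0.24 and 0.42, and -0.60 in brown fat without PC1. The difference between the depots was not tested, since each depot was normalized on its own. These values may also have taken part in the choice of these genes. The inguinal samples are aliquots of 1 pool per genotype, from cold-acclimated mice. No cold acclimation is given for the brown fat samples, and their sequencer was another one per the methods. Depot, cold and sequencer thus cannot be told apart.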

How the results depend on the processing

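Over the alternatives in brown fat, 9 to 12 of the 16 log2 differences were negative (11 as reported), and 33 of 61 among all peaks within 100 kb. Of 256 values for single peaks under an alternative 30 moved by more than the residual SD of the fit. This SD is the spread left after genotype and PC1. In inguinal fat 11 of 144 changed sign and 3 passed the threshold anew. Without each replicate in turn, 4 to 8 of the 16 peaks had every AKO sample below flox (8 without flox replicate 3 and without AKO replicate 1) and 1 to 2 above. In inguinal fat 0 to 3 of the 9 were below and 3 to 4 above (3 and 4 without flox replicate 2). The log2 difference of the Otop1 start-site peak in brown fat ranged from -0.80 to -0.73 without each replicate, and that of Kcnk3 from -0.34 to -0.16.

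DESeq2 called 1 and edgeR 2 of the 9 inguinal peaks, with 420 and 1846 calls over all peaks, against 0 and 0 for limma. Small inguinal differences at Phlda3 took either sign when a replicate was left out: from -0.401 to 0.0761 for the peak at 1598 bases (0.0325 without flox replicate 3) and from -0.0891 to 0.0949 at 4807 bases (-0.0238 without AKO replicate 1). With PC1 as a covariate in inguinal fat, where PC1 separates the genotypes fully, Kcnk3 came to -1.28 and Phlda3 to -1.37, 0.37, 2.23, 1.85, -0.0335 and 2.05 at -12992, -10622, -6326, 1598, 4807 and 10977 bases, and PC1 and genotype cannot be told apart there. Of the names with the most similar pattern 1 of 9 was kept with the highest peak in place of the sum. PPAR element matches with up to 2 mismatches came to 0 and 0 (6 and 2 as reported). The cause of these changes was not tested.

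Samples with the same replicate number did not deviate together throughout (correlations of 0.494, 0.0632 and -0.236 in brown fat and of -0.0387, -0.0497 and -0.0566 in inguinal fat). In brown fat flox replicate 3 with AKO replicate 2 came to 0.481, close to the 0.494 of the samples numbered 1. The numbers were therefore not taken as pairs. With a replicate block, 11 of the 16 brown fat differences (68.75%) were negative, Kcnk3 at its start site came to -0.33 and Otop1 to -0.78, and limma called 0 inguinal peaks. Depth limits the small peaks: AKO replicate 2 had a median of 70 reads per brown fat peak, and inguinal samples 62 to 98.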
